A study of Mus musculus with 7 samples.

Results

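The genes described here encode 6 proteoglycans (Lum, Dcn, Bgn, Fmod, Ogn and Vcan), the matricellular proteins Postn, Sparc and Tnc, and the matrix glycoprotein Fn1. They were taken as every probe set, other than the array's own controls, that the platform annotation assigns to exactly 1 of these 10 genes. This gave 30 probe sets of the 34945 that carry 1 gene name. Fibromodulin (Fmod) has 6 probe sets, versican (Vcan) has 8, and lumican (Lum) and periostin (Postn) have 1 each.

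RNA was measured on 7 mouse Affymetrix arrays. The groups are PDKC1, a cell line derived from mouse basal cell carcinoma, without cyclopamine (0 h) and after 6 h and 10 h of it, with 1 array each; basal cell carcinoma tumour, with 2 arrays; and normal epidermis of newborn (P0) mice, with 2 arrays. Cyclopamine is a plant alkaloid that blocks Hedgehog signalling at Smoothened. The labels name no genotype, strain, dose or vehicle, no age for the tumours, and do not say whether arrays of 1 tissue came from different animals, so the p-values cover the spread among these arrays alone, which may be technical. Every epidermis array came from newborn skin, and age and disease cannot be told apart. Labelling started from 100 ng of RNA for the tissues and from 2000 ng for PDKC1, so cell source and labelling cannot be told apart between PDKC1 and the tissues.

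Proteoglycans are core proteins that carry glycosaminoglycan chains. The small leucine-rich ones (Lum, Dcn, Bgn, Fmod and Ogn) bind collagen fibrils and shape their width and spacing, whereas versican is a large proteoglycan that binds hyaluronan. Matricellular proteins are secreted into the matrix and act on cells rather than build its scaffold. In skin, decorin, lumican and collagen are classical products of dermal fibroblasts, while the epidermis is made mainly of keratinocytes.

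The tissue arrays also differed in the ratio of 3' to 5' signal, in their medians and in the RNA of cell type markers. The ratio of 3' to 5' signal of Actb was 11.3 and 93.1 in the tumours and 3.98 and 2.84 in epidermis, and 1.15 to 1.21 in PDKC1. That of Gapdh was 10.6 and 15.4 in the tumours, 5.27 and 4.52 in epidermis, and 0.699 to 0.741 in PDKC1. The array medians over all probe sets were 118.2 and 127.9 (tumour), 71.0 and 75.3 (epidermis) and 72.1 to 78.1 (PDKC1). Of 10 fibroblast markers that are not among the 10 genes, 10 were higher in tumour, against 16.6% of all genes. These markers were chosen with earlier results of these data known. Their summed intensities were 63051 and 80653 in tumour and 10721 and 6737 in epidermis. The collagen marker Col3a1 read 22487.1 and 28243.3 in tumour and was also bright in epidermis, at 4683.0 and 2791.3. The part of RNA quality and of fibroblast content in the differences below was not tested, and fewer cells of a type cannot be told apart from less RNA per cell in these bulk samples.

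Most of the matrix genes were brighter in tumour than in newborn epidermis. Of the 30 probe sets, 19 were higher in tumour (limma, adjusted p under 0.05 over all 34945 probe sets), 0 were lower and 11 were not called. At an unadjusted p under 0.05 there were 22, all of them higher, and the share of all probe sets at that threshold was not counted. At the adjusted p under 0.05, 16.6% of all probe sets were called higher and 10.7% lower. Both tumours lay above both epidermis arrays in 23 of the 30, a pattern found in 36.5% of all probe sets. The median log2 difference, tumour minus epidermis, was 1.83 for the 30 and 0.13 for all probe sets tested. Judged by its brightest probe set, which stands for the gene below unless another is named, 7 of the 10 genes were higher, against 16.6% of all 18193 genes, and Dcn, Tnc and Fn1 were not called. With either epidermis array left out, fewer of the 30 probe sets and of the 10 genes were called, and fewer of all 34945 probe sets as well. Of all calls over the 34945 probe sets 61.0% were higher in tumour, against 45.5% after quantile normalization and 28.6% after centring arrays at their medians; 17 of the 30 were called higher under either of these.

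**Figure D1:**
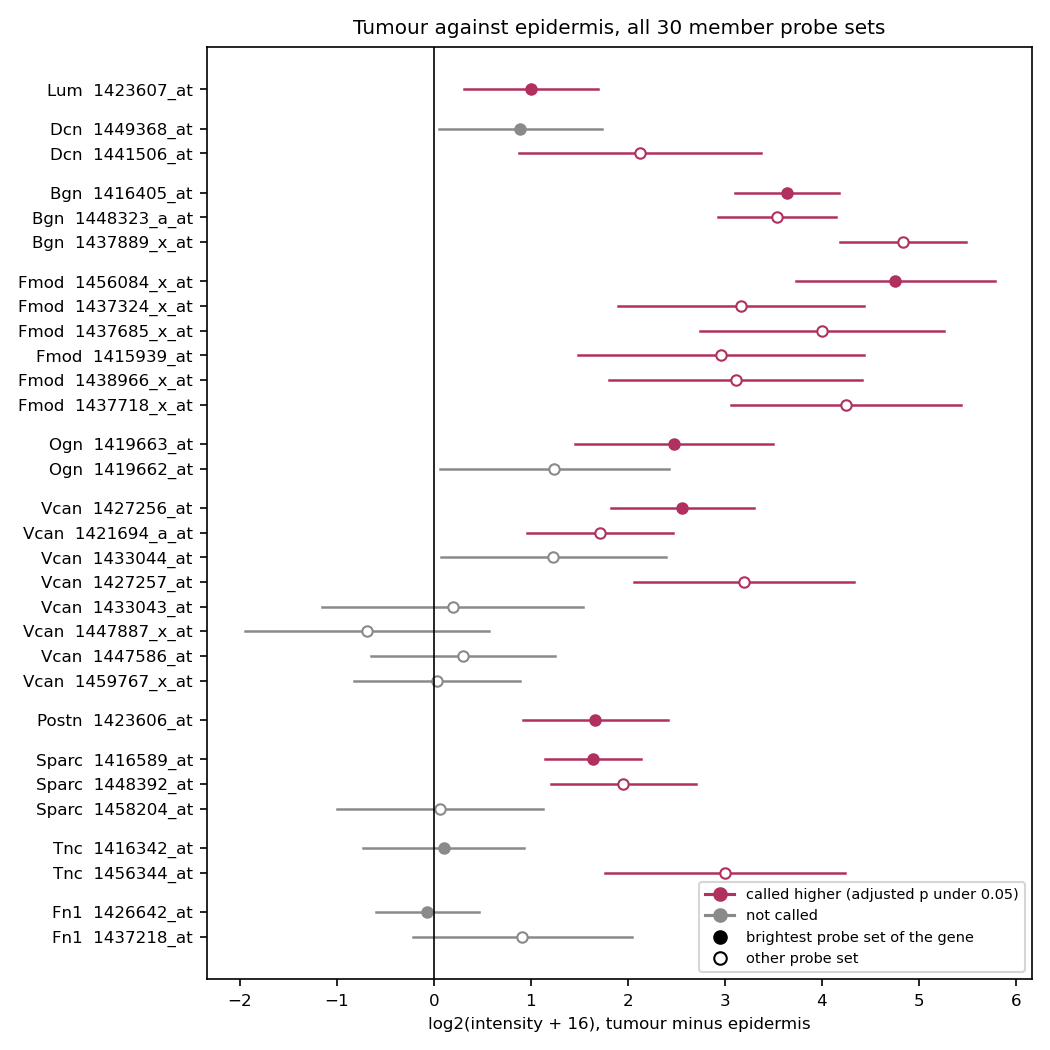
Log2(intensity + 16) difference, tumour minus epidermis, for each of the 30 probe sets (horizontal axis) with its 95% confidence interval from limma, 2 arrays per group. All 6 Fmod and all 3 Bgn probe sets lie to the right of 0, while the brightest Tnc and Fn1 probe sets lie at 0.10 and -0.07.

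Biglycan (Bgn), a small proteoglycan that binds collagen, was higher in tumour by a wide margin. Its intensity was 8186.7 and 6506.5 in the tumours, against 616.4 and 528.8 in epidermis. The groups were far apart compared with their spread, and limma gave 3.64 ± 0.23 for tumour minus epidermis in log2 units (± SE throughout, 2 arrays a group; adjusted p = 0.000492). The remaining probe sets of Bgn gave log2 differences of 3.54 and 4.84, so 3 of 3 were called higher. The larger value came from probe set 1437889_x_at, with 9644.5 and 6572.5 in tumour and 226.3 and 303.5 in epidermis; the x in its name marks probes that can also match related transcripts.

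Fibromodulin (Fmod), which binds collagen fibrils and affects their assembly, showed a log2 difference of 4.75 ± 0.43 (adjusted p = 0.000906). It read 2369.8 and 1548.4 in tumour, against 33.1 and 88.7 in epidermis. All 6 of its probe sets were higher, with log2 differences from 2.96 to 4.75 and adjusted p from 0.000906 to 0.0135. The probe sets share a target, so they are repeated readings of 1 gene, and 5 of them, the brightest included, are of the x kind. The only one not of that kind, 1415939_at, had the smallest difference (2.96 ± 0.62, adjusted p = 0.0135). Each of the 6 was brighter in tumour 1 than in tumour 2, by 1.52-fold to 3.05-fold. Probe set 1415939_at was not called without epidermis 1 (adjusted p = 0.0931) or epidermis 2 (0.0533), nor was 1438966_x_at without epidermis 1 (0.0595). With a pseudocount of 64 these were at 1.97 and 2.01, still called.

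Osteoglycin (Ogn) is another small leucine-rich protein of the matrix. It had 424.0 and 634.3 in tumour and 115.2 and 54.5 in epidermis, and the groups did not overlap. The log2 difference was 2.48 ± 0.43 (adjusted p = 0.00695), with 0.0612 once epidermis 2 was left out. Its dimmer probe set 1419662_at read 80.2 and 64.9 in tumour against 32.6 and 12.7 in epidermis, and was not called (1.24, adjusted p = 0.115).

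Lumican and decorin, the small proteoglycans typical of dermis, were already bright in newborn epidermis and differed less. Lum had 2018.6 and 1617.0 in tumour and 1137.7 and 702.3 in epidermis, a log2 difference of 1.0 ± 0.29 (adjusted p = 0.0426). This call was lost with quantile normalization (adjusted p = 0.0611), after centring each array at its median (0.36, adjusted p = 0.417), without a variance trend (0.117), with all 7 arrays in 1 fit (0.234), and on leaving out tumour 1 (0.0637), epidermis 1 (0.0958) or epidermis 2 (0.353). Dcn had 13883.6 and 6977.6 in tumour and 4642.5 and 6075.9 in epidermis. Both tumours were above both epidermis arrays, but tumour 2 only narrowly, and Dcn was not called (0.89 ± 0.36, adjusted p = 0.113). Without tumour 2 its difference was 1.38 (adjusted p = 0.00323), and with all 7 arrays in 1 fit it was called (0.0497); it was at 0.39 without tumour 1 and 0.25 with centring, not called. A dimmer decorin probe set, 1441506_at, read 260.6 and 367.5 in tumour against 32.0 and 100.3 in epidermis and was called higher (2.12 ± 0.53, adjusted p = 0.0249); it missed the threshold with quantile normalization (0.0936), with centring (0.0638), without tumour 2 (0.0851) and without epidermis 1 (0.150).

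The large proteoglycan versican (Vcan), a component of provisional and hyaluronan-rich matrix, was also higher in tumour. Its brightest probe set, 1427256_at, had 5619.9 and 3467.8 in tumour and 610.6 and 879.2 in epidermis, a log2 difference of 2.56 ± 0.31 (adjusted p = 0.00189). Probe sets 1427257_at (3.20 ± 0.48) and 1421694_a_at (1.71 ± 0.32) were called higher as well. The second of these was not called without epidermis 1 (adjusted p = 0.0997) or epidermis 2 (0.0601). With a pseudocount of 64 the first was at 1.97, and with centring the second was at 1.07, both still called. The other 5 of its 8 probe sets were not called. Of these, 1433044_at read 97.1 and 108.8 in tumour against 24.0 and 48.1 in epidermis (1.23, adjusted p = 0.110; 0.0496 with all 7 arrays in 1 fit). The remaining 4 were dim on every tissue array, at most 96.0, with overlapping groups and log2 differences of 0.20 (1433043_at), 0.30 (1447586_at), 0.03 (1459767_x_at) and -0.69 (1447887_x_at).

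Of the matricellular genes, periostin and SPARC were higher in tumour. Postn, whose protein binds integrins and collagen, had 16691.3 and 27352.4 in tumour and 5885.9 and 7703.5 in epidermis. The log2 difference was 1.66 ± 0.31 (adjusted p = 0.00913), and tumour 2 was the brighter tumour here, unlike for Bgn and Fmod. Leaving out epidermis 1 gave an adjusted p of 0.127, and leaving out epidermis 2 gave 0.0667; with centring the difference was 1.02 and still called. Sparc encodes a collagen-binding glycoprotein. It had 5352.1 and 4595.2 in tumour, against 1643.5 and 1521.6 in epidermis (1.64 ± 0.21, adjusted p = 0.00238; 0.0531 without epidermis 1 and 0.0568 without epidermis 2), and 1.0 with centring, still called. A further bright Sparc probe set, 1448392_at, differed by 1.95 ± 0.31 (adjusted p = 0.00509; 0.0752 without epidermis 1). The dim 1458204_at lay between 69.9 and 86.4 on the tissue arrays and was not called (0.06, adjusted p = 0.942).

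Tenascin C (Tnc), an adhesion-modulating glycoprotein of developing and wounded tissue, gave different readings by probe set. The brighter, 1416342_at, had 1053.1 and 598.5 in tumour and 596.4 and 916.4 in epidermis, so the groups overlapped. Its log2 difference was 0.10 with a 95% interval from -0.73 to 0.93 (adjusted p = 0.869), and its sign turned with quantile normalization (-0.12) and with centring (-0.54). The dimmer, 1456344_at, read 223.2 and 277.3 in tumour and 31.2 and 7.3 in epidermis and was called higher (3.0 ± 0.52, adjusted p = 0.00683; 0.0516 without epidermis 2), and at 1.93 with a pseudocount of 64. Which part of the transcript each probe set matches was not analysed here.

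Fibronectin (Fn1), the adhesive glycoprotein that cells bind through integrins, was close in both tissues. It had 1959.8 and 1677.9 in tumour and 1734.4 and 2098.6 in epidermis. The log2 difference was -0.07 (adjusted p = 0.852), and its 95% interval from -0.60 to 0.46 is that of the values as scaled by the authors; with centring the difference was -0.71 (adjusted p = 0.0599). The dimmer 1437218_at had 105.0 and 106.9 in tumour and 35.6 and 65.1 in epidermis, above in both tumours but not called (0.91, adjusted p = 0.211).

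The start regions of genes with contrasting patterns are shown so that their letters can be set beside these values. Bgn differed strongly between the tissues, and Postn was bright in tissue and dim in PDKC1. The brighter Tnc probe set, but not the dimmer, was brightest in PDKC1. Each sequence is the 250 bases before an annotated start in RefSeq's mouse annotation, build GRCm38.p6; 7 of the 10 genes had an entry, and Lum, Dcn and Fn1 had none. Capitals mark TATAA (TATA box core) or GGGCGG (GC box) on either strand. Bgn lies at chrX:73483351-73483600, plus strand, the second Postn start at chr3:54360857-54361106, plus strand, and the second Tnc start at chr4:64046937-64047186, minus strand.
Bgn: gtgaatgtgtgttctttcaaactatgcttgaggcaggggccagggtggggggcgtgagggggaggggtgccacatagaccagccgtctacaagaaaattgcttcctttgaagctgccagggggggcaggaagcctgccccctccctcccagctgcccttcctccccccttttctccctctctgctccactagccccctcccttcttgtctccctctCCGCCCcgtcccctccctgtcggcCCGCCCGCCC
Postn: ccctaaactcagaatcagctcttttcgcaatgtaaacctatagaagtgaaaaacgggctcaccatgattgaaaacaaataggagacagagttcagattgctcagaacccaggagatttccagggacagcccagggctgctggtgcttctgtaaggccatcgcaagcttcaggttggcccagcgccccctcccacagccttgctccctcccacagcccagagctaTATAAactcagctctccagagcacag
Tnc: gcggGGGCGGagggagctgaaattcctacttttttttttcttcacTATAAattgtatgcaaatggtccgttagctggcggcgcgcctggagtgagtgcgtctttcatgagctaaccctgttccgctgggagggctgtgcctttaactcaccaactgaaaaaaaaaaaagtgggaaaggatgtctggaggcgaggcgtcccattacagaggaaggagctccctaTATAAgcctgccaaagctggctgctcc
The window of the first Postn start holds none of these motifs, while the one shown holds TATAA beginning 26 bases before the start, and the Tnc window holds it at 27 and 205 bases, with a GC box at 246. Bgn has no TATAA but has 3 GC boxes, at 34, 10 and 6 bases, of which the last 2 overlap. TATAA was found in 22.8% and GGGCGG in 32.7% of 32851 windows of this length. The GLI site GACCACCCA (0.225% of windows) and the AP-1 site TGANTCA (6.75%) were searched on both strands and found in 0 of the 9 windows of these genes. These matches describe letters only.

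Other genes of the same families were counted in the gene-level fit, where 16.6% of all genes were called higher and 12.5% lower. Of 76 measured genes in 6 lists, 35 were higher in tumour and 3 were lower. The count was 28 higher and 4 lower with quantile normalization, and 24 and 6 with centring. Fewer list genes were called with either epidermis array left out, where fewer of all probe sets were called as well. The median log2 difference over all 18193 genes was 0.09.

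Among 10 other small leucine-rich proteoglycans 3 were higher and 0 lower (median 0.43; -0.21 with centring). Asporin (Aspn) had 3430.6 and 2349.5 in tumour and 197.6 and 72.2 in epidermis (4.38 ± 0.44, adjusted p = 0.00117). Osteomodulin (Omd, 3.99 ± 0.66) and Prelp (3.25 ± 0.47) were also higher, Prelp by 1.92 with the mean of its probe sets and by 1.94 with a pseudocount of 64. In the RefSeq table Prelp is the protein-coding neighbour of Fmod on chromosome 1, Omd that of Ogn on chromosome 13, and Kera that of Lum on chromosome 10, where Lum adjoins Dcn. Kera, the cornea-typical keratocan, was not called (-0.16, adjusted p = 0.882). Chad, a cartilage matrix protein, was not called; its tumour 1 value was 1411.3 and its tumour 2 value 21.8, and it is named because of this gap, after its values were seen.

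Of 10 genes of hyaluronan and its proteoglycans 3 were higher and 1 lower (median 0.52; 0.00 with quantile normalization and -0.13 with centring). Aggrecan (Acan), the cartilage relative of versican, had 1444.5 and 809.5 in tumour and 73.2 and 81.8 in epidermis (3.56 ± 0.37, adjusted p = 0.00124). The hyaluronan-binding Tnfaip6 was higher by 2.39 ± 0.61, but missed the threshold with quantile normalization (adjusted p = 0.106), centring (0.0693), no variance trend (0.0502), and without tumour 1 (0.0506) or epidermis 2 (0.129). Cd44, a hyaluronan receptor, was higher by 0.93 ± 0.28 (adjusted p = 0.0483), but not with centring (0.29, adjusted p = 0.442), the mean of its probe sets (0.39, adjusted p = 0.251), no variance trend (0.123), or without epidermis 1 (0.240) or 2 (0.266). The hyaluronan synthase gene Has3 was lower (-1.15 ± 0.26), with 488.3 and 376.8 in tumour and 919.5 and 1022.1 in epidermis; it was at -1.79 with centring and was not called without epidermis 1 (adjusted p = 0.146) or 2 (0.190).

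Cell-surface and basement membrane proteoglycans had 5 higher and 0 lower of 12 (median 0.86; 0.22 with centring). The glypican Gpc6 differed by 2.80 ± 0.33, the syndecan Sdc3 by 2.43 ± 0.31, agrin (Agrn) by 2.20 ± 0.25 and serglycin (Srgn), a granule proteoglycan of blood cells, by 1.77 ± 0.34. Averaging their probe sets put Sdc3 at 1.41 and Agrn at 1.03, both still called, and with centring Srgn was at 1.13. Srgn was not called without epidermis 1 (adjusted p = 0.0973) or 2 (0.0738). Of 19 other matricellular genes 9 were higher and 0 lower (median 1.52; 0.88 with centring). Ccn2, a growth-factor-responsive matricellular gene, had 6833.5 and 7792.7 in tumour and 540.8 and 598.8 in epidermis (3.64 ± 0.20, adjusted p = 0.000432). Thbs4 (3.23 ± 0.62), Tnn, a tenascin (2.80 ± 0.44), and Sparcl1, a relative of Sparc (2.57 ± 0.57), followed. With a pseudocount of 64 Thbs4 was at 1.92 and Tnn at 1.5, and without tumour 1 Sparcl1 was at 1.66, all still called. Thbs4 and Sparcl1 were each not called on leaving out either epidermis array, with adjusted p from 0.0591 to 0.105, and Sparcl1 was not called with quantile normalization (0.0579).

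Fibre assembly and crosslinking genes had 10 higher and 1 lower of 15 (median 1.64; 1.0 with centring). Pcolce, an enhancer of procollagen processing, had 2562.4 and 3073.4 in tumour and 117.0 and 64.3 in epidermis (4.77 ± 0.32, adjusted p = 0.000467). The microfibril gene Mfap4 (3.87 ± 0.58), the collagen crosslinking enzyme Lox (2.93 ± 0.31) and the fibrillin Fbn2 (2.57 ± 0.35) were higher too; Mfap4 was at 2.40 with a pseudocount of 64 and Lox at 1.86 with the mean of its probe sets. Fibulin 1 (Fbln1) was lower, with 414.0 and 218.5 in tumour and 1286.3 and 1713.1 in epidermis (-2.24 ± 0.35); it was not called with the mean of its probe sets (-0.82, adjusted p = 0.114) or without epidermis 2 (0.0678). Of 10 integrin subunits that bind these proteins 5 were higher and 1 lower (median 0.95; 0.31 with centring). Itgb8 differed by 3.06 ± 0.26, Itga8 by 2.83 ± 0.33, Itgb3 by 2.28 ± 0.46 and Itgav by 1.52 ± 0.21, while Itgb5 was lower (-1.61 ± 0.35). With a pseudocount of 64 Itgb3 was at 1.21, with centring Itgav was at 0.88, and Itgb5 was at -0.99 with the mean of its probe sets and -1.06 without tumour 2, all still called. With the mean of a gene's probe sets Itga8 (adjusted p = 0.0739), Itgb3 (0.0967) and Itgav (0.262) were not called. Without epidermis 1 or 2 Itgb3 (adjusted p = 0.0906 and 0.0609), Itgav (0.0725 and 0.0546) and Itgb5 (0.104 and 0.124) were not called, and without a variance trend Itgb5 had 0.0575.

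**Figure D2:**
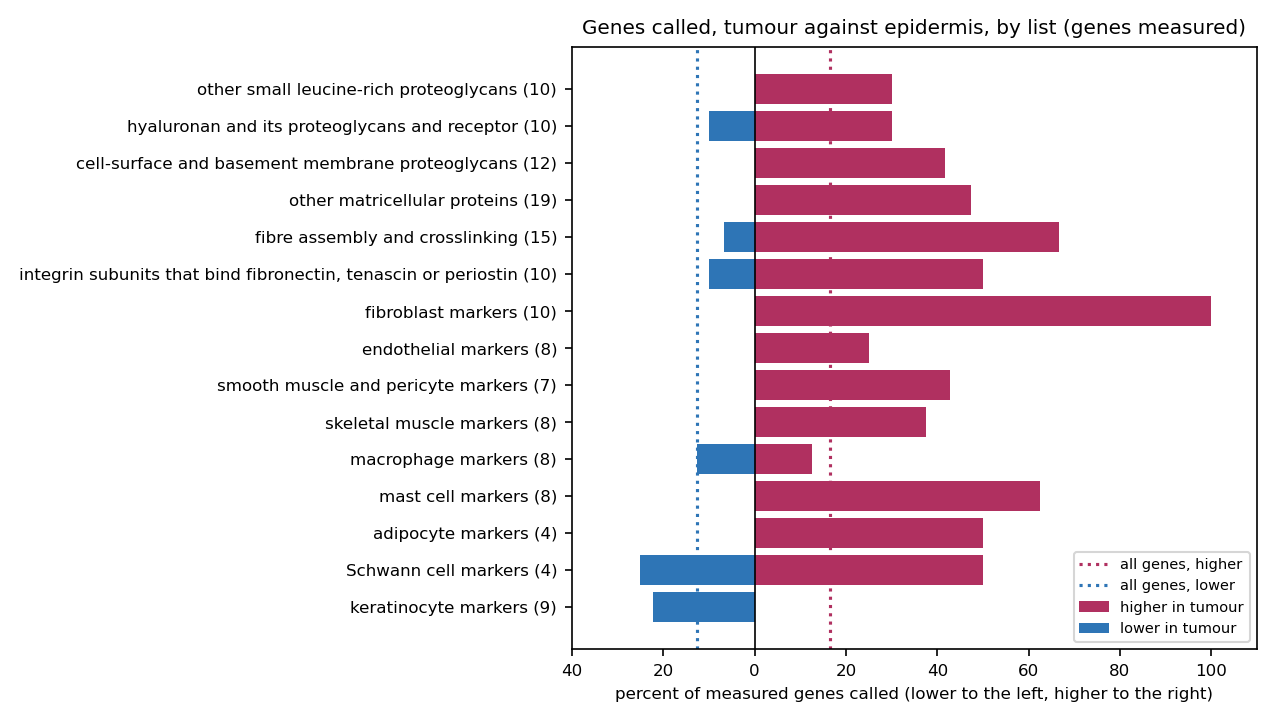
Percent of the measured genes of each list that limma called higher (bars to the right) or lower (bars to the left) in tumour than in epidermis, with the number measured in parentheses and dotted lines at the 16.6% and 12.5% of all genes. All 10 fibroblast markers were called higher, as were 10 of 15 fibre assembly genes.

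Markers of other cell types stood beside these differences as follows. The fibroblast markers had a median log2 difference of 3.22, with Pdgfrb at 4.68 ± 0.32, Col1a1 at 4.19 ± 0.37, Pdgfra at 3.51 ± 0.49 and Thy1 at 3.35 ± 0.28. Smooth muscle and pericyte markers had 3 higher of 7 and summed to 4019 and 2700 in tumour and 866 and 1146 in epidermis. Endothelial markers had 2 higher of 8 (1494 and 1174 in tumour, 439 and 432 in epidermis), mast cell markers 5 higher of 8 (5161 and 5418 in tumour, 1285 and 908 in epidermis), and skeletal muscle markers 3 higher of 8. The sums of the skeletal muscle markers were 15468 (tumour 1), 3023 (tumour 2), 478 (epidermis 1) and 463 (epidermis 2). The brightest probe sets of Lum, Dcn, Bgn, Fmod, Vcan, Sparc, Tnc and Fn1 were brighter in tumour 1, and those of Ogn and Postn in tumour 2. Macrophage markers had 1 higher and 1 lower of 8 (10602 and 11686 in tumour, 9399 and 8072 in epidermis), adipocyte markers 2 higher of 4 (882 and 483, against 216 and 169 in epidermis), and Schwann cell markers 2 higher and 1 lower of 4 (1836 and 983, against 1269 and 1129 in epidermis). Of 9 keratinocyte markers 0 were higher and 2 lower (145645 and 106888 in tumour, 202192 and 232796 in epidermis). No marker was listed at 0 on any array. The part of any of these cell types in the matrix gene differences was not tested.

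Markers of the PDKC1 line itself were mixed. Krt5 (31321.6 at 0 h), Krt14 (33584.7) and Trp63 (8778.9), markers of basal keratinocytes, were bright in untreated PDKC1, but 4 of the 9 keratinocyte markers were under the array median. Krt17 had 35.0 in PDKC1 at 0 h, against 13321.2 and 5166.3 in tumours 1 and 2. Krt1 had 28.3 against 6580.1 and 7801.8, and Krt15 had 957.0 against 23732.9 and 13433.7. The epithelial adhesion gene Cdh1 had 59.4 in PDKC1 at 0 h, against 5488.6 and 5890.9 in tumours 1 and 2. Epcam, also an epithelial adhesion gene, had 9.6 against 7982.3 and 5581.7, and both genes were among those 4. The smooth muscle actin gene Acta2 had 22868.0 at 0 h, against 1469.6 and 1561.3 in tumour. Of the 7 smooth muscle and pericyte markers 4 were under the PDKC1 median, among them Rgs5 at 1.3, and Tagln at 92.3 was below both tumours. Of the 10 fibroblast markers 7 were under the array median at 0 h, Pdgfra at 6.9 among them; the 10 summed to 6232, 5337 and 5071 at the 3 times. Col5a1 (2454.1) and Col6a1 (3277.4) were among the others.

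The 10 genes differed in how PDKC1 stood to the tissues. On all 3 PDKC1 arrays the brightest probe sets of Lum, Dcn, Bgn, Vcan and Postn lay below all 4 tissue arrays, those of Sparc, Tnc and Fn1 lay above all 4, and those of Fmod and Ogn did neither. Over the 30 probe sets 8 lay below, against 17.8% of all probe sets, and 6 lay above, a share near the 21.6% of all probe sets. At 0 h, 20 of the 30 were at least 2-fold below the tumour mean on the log2(intensity + 16) scale and 4 at least 2-fold above it, against 25.6% and 21.0% of all probe sets. Set beside the epidermis mean, 7 were at least 2-fold below and 8 at least 2-fold above, against 17.2% and 23.0%. With 1 array at each time these differences have no test.

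**Figure D3:**
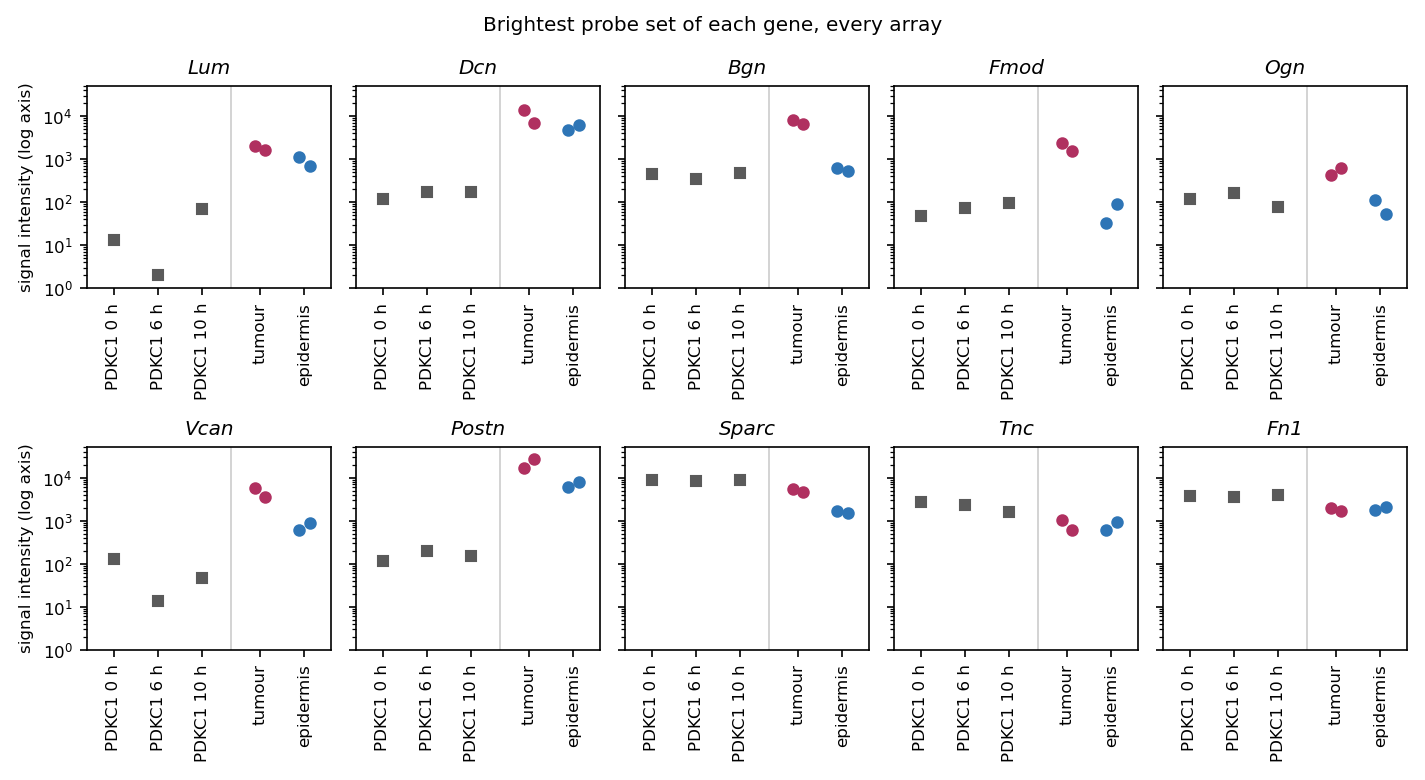
Signal intensity (log axis) of the brightest probe set of each of the 10 genes on every array, with squares for the 3 PDKC1 arrays and circles for the 2 tumour and 2 epidermis arrays. Postn is at 117.6 to 195.3 in PDKC1 and at least 5885.9 on every tissue array, whereas Sparc is at 8155.7 to 8912.1 in PDKC1 and at most 5352.1 in tissue.

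Lum, Postn and the brightest Dcn probe set were below all tissue arrays by a wide margin. Lum had 13.2, 2.0 and 67.7 at 0 h, 6 h and 10 h, each below the median probe set of its array. Postn had 117.6, 195.3 and 152.8, with log2 differences at 0 h of -7.32 from the tumour mean and -5.66 from the epidermis mean. Dcn had 118.7, 174.7 and 168.2 (-6.19 from tumour and -5.31 from epidermis at 0 h). Postn and Dcn nevertheless exceeded the median probe set of each PDKC1 array. The dimmer Dcn probe set 1441506_at had 38.1, 10.8 and 5.8 in PDKC1, and its 0 h value lay between the epidermis values of 32.0 and 100.3 (-2.59 from tumour and -0.47 from epidermis).

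For Bgn, Fmod and Ogn the brightest probe set in PDKC1 was nearer to epidermis than to tumour. Bgn had 446.6, 339.6 and 476.1 in PDKC1, just under the epidermis arrays, with a log2 difference at 0 h of -3.98 from tumour and -0.34 from epidermis. Its other probe sets were also nearer to epidermis, with 1448323_a_at at -1.24 and 1437889_x_at at -0.49 from it. Fmod had 48.6, 73.1 and 95.3, overlapping epidermis, with a log2 difference of -4.90 from tumour and -0.15 from epidermis at 0 h. Among its other probe sets 1415939_at was nearer to tumour at 0 h (-1.36) than to epidermis (1.59), and the rest were nearer to epidermis. Ogn had 119.9, 166.6 and 79.1, also overlapping epidermis (-1.98 from tumour and 0.50 from epidermis at 0 h). The other Ogn probe set, 1419662_at, had 137.0, 199.5 and 118.9 and lay above all 4 tissue arrays on all 3 PDKC1 arrays (0.79 from tumour and 2.03 from epidermis at 0 h). Vcan at 131.0, 13.8 and 45.9 was below every tissue array (-4.91 from tumour and -2.35 from epidermis at 0 h).

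Sparc, Tnc and Fn1 were brighter in the carcinoma line than in tumour or epidermis. Sparc had 8912.1, 8155.7 and 8656.5 in PDKC1, and at 0 h its intensity was 1.79-fold the tumour mean and 5.63-fold the epidermis mean. Tnc had 2741.1, 2357.8 and 1569.6, at 0 h 3.32-fold tumour and 3.62-fold epidermis. Its dimmer probe set 1456344_at went the other way, with 29.2 at 0 h and a log2 difference of -2.55 from the tumour mean. Fn1 had 3768.3, 3465.0 and 3926.7, at 0 h 2.07-fold tumour and 1.97-fold epidermis.

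With cyclopamine few of the matrix genes moved. Of the 30 probe sets 17 were bright enough in PDKC1 to be counted, meaning that their brightest PDKC1 array exceeded its own median probe set. Of these 17, 1 was at least 2-fold lower at both 6 h and 10 h and 0 were at least 2-fold higher, against 0.979% and 1.08% of all probe sets counted in the same way. No test is possible with 1 array at each time. The 1 was Vcan 1427256_at, at 131.0, 13.8 and 45.9, a log2 difference from 0 h of -2.30 at 6 h and -1.25 at 10 h. Its treated values are below the array medians of 72.1 and 75.7, and with a pseudocount of 64 it was no longer past 2-fold at both times. The other Vcan probe sets called in tissue were too dim in PDKC1 to be counted and were not 2-fold lower at either time, at 0.11 and 1.09 for 1421694_a_at and -0.15 and 0.59 for 1427257_at. A further 2 of the 17 were at least 2-fold lower at 10 h only, against 2.69% of probe sets. They were Fmod 1415939_at, at 90.9, 85.4 and 12.8, and Bgn 1437889_x_at, at 182.6, 239.4 and 75.0. Neither change was seen in the brightest probe set of its gene, which was higher at 10 h than at 0 h by 0.78 for Fmod and 0.09 for Bgn.

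The brighter Tnc probe set was lower at each later time in PDKC1, at 2741.1, 2357.8 and 1569.6, without reaching 2-fold (-0.22 at 6 h and -0.80 at 10 h in log2 units). The dimmer 1456344_at, too dim to be counted, had 29.2, 24.4 and 47.3 (-0.16 and 0.49). The brightest Sparc and Fn1 probe sets stayed within 0.13 log2 units of 0 h at both times. Fn1 1437218_at, also counted, had 312.5, 180.1 and 247.9 (-0.74 and -0.32), and Sparc 1458204_at was at -0.17 and -0.19. Postn was 0.66 higher at 6 h and 0.34 higher at 10 h, and Dcn 0.50 and 0.45 higher. Dcn 1441506_at, too dim to be counted, went the other way, with 38.1, 10.8 and 5.8 (-1.01 and -1.31). Of the 76 genes in the other lists 1 was past 2-fold at both times, the integrin subunit Itga9, with 19.4, 57.7 and 85.1, of which the first 2 are below the array medians of 78.1 and 72.1. It was higher, as were 0.924% of all genes bright enough to be counted, and 1.01% were as much lower. Ccn2, already named for tumour, had 1939.7, 1286.3 and 761.0 in PDKC1, a log2 difference of -0.59 at 6 h and -1.33 at 10 h. It was thus not past 2-fold at both times, and 2.69% of all probe sets counted were at least 2-fold lower at 10 h. At 10 h Loxl4 was also at -1.33, while Ccn4 was at 1.35, and 2.56% of all probe sets counted were at least 2-fold higher at 10 h. Loxl4 and Ccn4 are named for these 10 h values, outside the rule for named list genes.

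**Figure D4:**
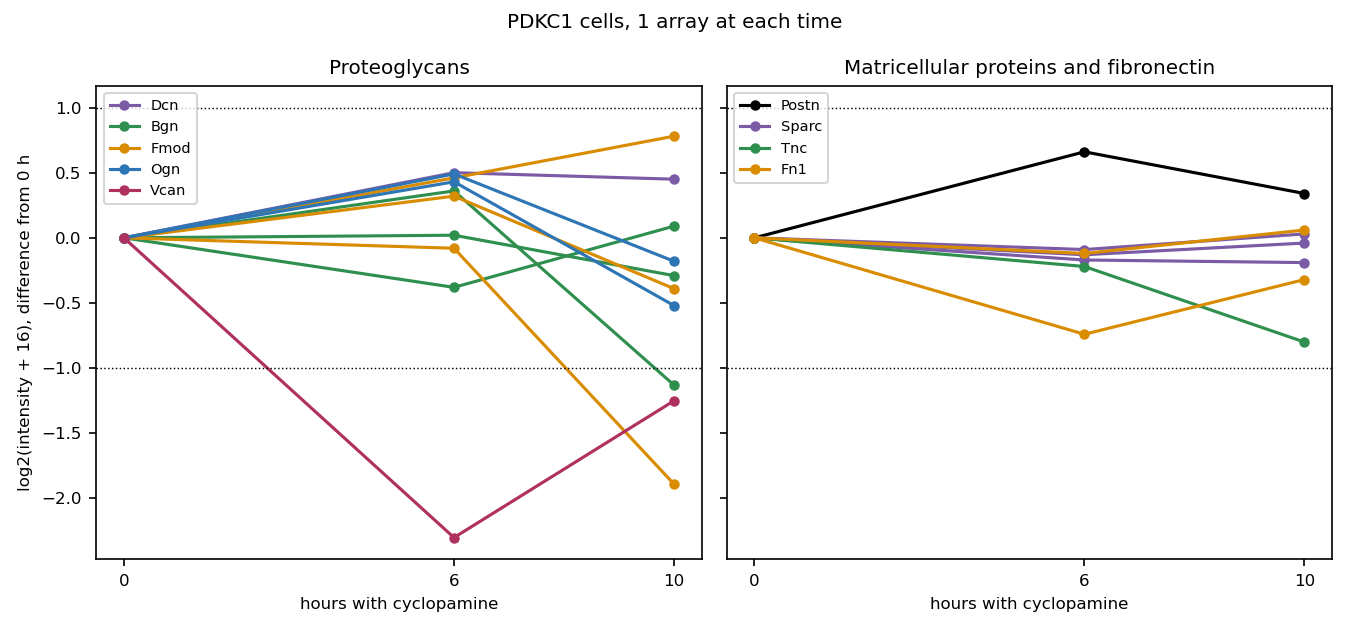
Log2(intensity + 16) difference from 0 h (vertical axis) by hours with cyclopamine for the 17 probe sets bright enough in PDKC1, with 1 line per probe set, 1 array at each time and dotted lines at 2-fold. The Vcan line lies at -2.30 and -1.25, while the bright Sparc lines stay within 0.13 of 0.

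The genes with the closest patterns over the 7 arrays were found by the root mean square difference of log2 values after each gene was centred on its own mean, among 15665 genes that span at least 1 log2 unit. For Bgn they were Ms4a4d (0.13) and Grp (0.17), for Fmod Slc2a13 (0.39) and Serping1 (0.41), and for Ogn A830010M20Rik and Tbx2 (both 0.22). For Lum they were Cyp4b1 (0.43) and Kdf1 (0.46), for Dcn Ano9 (0.31) and Tnk1 (0.32), and for Vcan Sema5a (0.30) and Dio2 (0.43). Postn was nearest to Kif26a (0.30) and Irx4 (0.56), Sparc to Ppp1r11 (0.11) and Npdc1 (0.12), Tnc to Tsfm (0.15) and Fmnl1 (0.17), and Fn1 to Dennd10 (0.04) and Nde1 (0.05). The distances are larger for genes with a wide range, such as Postn, whose log2 values span 7.68, than for Fn1, which span 1.22. The 7 arrays share 3 sources, so this describes levels in those sources.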

How the data were processed

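The deposited values are linear intensities of probe sets, made by the authors; the summarising software is not given in the sources used here. From the values, each array's mean without its lowest and highest 2% of probe sets was 500.00, and no further normalization was applied. Of 45101 probe sets, 34945 (18193 genes) were kept, and 64 controls, 932 that name several genes and 9160 unnamed ones were dropped. No 2 arrays were identical, and the table gives no detection calls.

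Intensities were taken as log2(intensity + 16). Tumour and epidermis (2 arrays each) went into limma 3.58.1 (R 4.3.3; lmFit and eBayes with trend), without a block, with Benjamini-Hochberg adjustment over all 34945 probe sets, or over all genes for the lists, each gene being read by its brightest probe set (mean log2 over the 7 arrays). Fold differences in PDKC1 had no test. All tests were two-sided. The 10 genes and the lists were chosen with earlier results of these data known. Named list genes were up to 4 called in each direction by size, and any past 2-fold at both times in PDKC1; exceptions are stated. Of 151 list entries 142 were measured. The fit was tested on simulated data. The number of arrays limits the precision. Alternatives changed 1 choice at a time: normalization, pseudocount, filter on dim probe sets, variance trend, replicate block, each tissue array left out, all 7 arrays in 1 fit, all probe sets, the mean of a gene's probe sets, and a 2-fold minimum.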

Additional observations from a re-analysis of the deposited data

How the results depend on the processing

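No member probe set was called lower under any setting run. Counts of member probe sets and genes called higher stayed within 1.5 times of 19 and 7, except as follows. Without the dimmest 50 percent of probe sets 10 were called, of 14 still tested. Leaving out 1 tissue array gave from 11 to 19 probe sets, from 3 to 8 genes, and from 15 to 38 list genes higher and from 0 to 5 lower. List genes called higher numbered 16 without the dimmest 50 percent of genes, of 30 tested. List genes called lower were 6 with each array centred on its median and 5 with all 7 arrays in 1 fit, against 3. The replicate block gave 19 probe sets, 7 genes, and 38 list genes higher and 3 lower; it changed no member's call. Same-numbered tumour and epidermis arrays share only a number and did not deviate together (correlation -0.01 over 34945 probe sets). With quantile normalization and with centring the median log2 difference of all probe sets was -0.18 and -0.51, and that of the members 1.92 and 1.19.

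Signs turned for probe sets that were not called. With quantile normalization and with centring they were -0.27 and -0.44 for Vcan 1433043_at, -0.05 and -0.61 for Vcan 1459767_x_at, -0.51 and -0.58 for Sparc 1458204_at, and -0.12 and -0.54 for Tnc 1416342_at; for Vcan 1447586_at centring gave -0.34. Over the fits that left out 1 tissue array the values ran from -0.36 to 0.75 for Vcan 1433043_at, -0.08 to 0.68 for 1447586_at, -0.16 to 0.22 for 1459767_x_at, -0.07 to 0.18 for Sparc 1458204_at, -0.30 to 0.50 for Tnc 1416342_at, -0.21 to 0.06 for Fn1 1426642_at and -0.53 to 0.45 for Itga9. With the mean of its probe sets Itga9 was at 0.54. The causes were not tested.

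In PDKC1 the count lower at both times was 0 with a pseudocount of 64 and 3 with no filter on level. At 0 h, 7 members were at least 2-fold above the tumour mean with centring, against 4, and 5 above the epidermis mean with a pseudocount of 64, against 8.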
